A study of Mus musculus with 4 samples.

Results

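Epicardial and proepicardial cells of the mouse heart at E10.5 were picked out of 4 single-cell RNA libraries by the transcripts they carried. A barcode, which stands for a captured droplet and mostly for a single cell, was kept as passing when it held 500 to 6000 genes, 2000 to 50000 UMIs (unique molecular identifiers, each counting a captured transcript) and at most 20% of its UMIs on mitochondrial genes. A passing barcode became a member when Upk3b, Upk1b and Wt1 together had at least 3 UMIs, Tnnt2 was under 10 UMIs per 10000 of the cell, Cdh5 and Pecam1 together had at most 1 UMI, and Epcam had at most 1 UMI. In this way 718 of the 28025 passing barcodes (33589 barcodes in all) were taken as epicardial cells, and the other 27307 are called the remaining cells.

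The study asked how an amino acid change in CYP51, an enzyme of cholesterol synthesis, bears on heart development. Hearts of C57BL/6J embryos at E10.5 were dissociated, red cells were lysed, and 3′ transcript ends were counted. The 2 wild-type libraries (Wt rep1 and Wt rep2) carried the normal Cyp51 gene, and the 2 Ho libraries were homozygous for Cyp51 I383V (isoleucine to valine), a knock-in present in every cell of the animal. All 4 libraries carried the same treatment label, CRISPR/Cas9, the wild-type ones included. Neither the number of embryos behind a library nor the litter is given in the labels, so every p-value below measures the spread between libraries, which may be technical.

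The epicardium is the mesothelial sheet that covers the heart. It arises from the proepicardium, a cluster of coelomic cells near the venous pole, and spreads over the myocardium around mid-gestation, after which some of its cells undergo an epithelial to mesenchymal transition and give rise to fibroblasts and mural cells of the coronary vessels. The uroplakins Upk3b and Upk1b are membrane proteins of mesothelia in general, Wt1 is a zinc finger transcription factor of the coelomic lining and epicardium, and Tcf21, a basic helix-loop-helix factor that was not used to choose the cells, marks the epicardium and its fibroblast progeny.

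The libraries were not alike. Wt rep1 was the shallowest, with a median of 17566 UMIs per member against 22009 in Wt rep2, 22027 in Ho rep1 and 22196 in Ho rep2. Ho rep1 was the only library with Xist UMIs in its members (607 UMIs in 127 of 142 cells), and the Y-linked Eif2s3y had 0 UMIs there against 144, 236 and 259 in the members of Wt rep1, Wt rep2 and Ho rep2. The remaining cells also differed in makeup. Each was put in a single class, by markers, Tnnt2, endothelial genes or Epcam. The class with at least 2 Epcam UMIs held 475 cells in Wt rep1, 186 in Wt rep2, 1 in Ho rep1 and 270 in Ho rep2. Cells that met none of the gates numbered 4622, 2031, 1241 and 1872. The sex-linked transcripts and the Epcam cells thus moved with single libraries, and their part in the results below was not tested. Among the members, 1 barcode sequence was shared with a member of another library and 6 with any passing barcode of another library.

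The share of epicardial cells was not separable between genotypes. They were 1.93% of passing barcodes in Wt rep1 (160 cells, exact Clopper-Pearson 95% interval 1.65 to 2.25%), 2.88% in Wt rep2 (197 cells, 2.50 to 3.30%), 2.05% in Ho rep1 (142 cells, 1.73 to 2.41%) and 3.67% in Ho rep2 (219 cells, 3.21 to 4.18%). These intervals cover counting error only, and the spread within each genotype went beyond it. The mean was 2.41% ± 0.671 (SD, n = 2) in the Wt and 2.86% ± 1.15 (SD, n = 2) in the Ho libraries, and the exact two-sided permutation test gave p = 0.667 where 2 against 2 libraries cannot go below 0.33. The difference of 0.453 percentage points was -0.0216 without Wt rep1, 0.927 without Wt rep2, 1.26 without Ho rep1 and -0.358 without Ho rep2. Fewer epicardial cells cannot be told apart from more cells of other types in a library.

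**Figure D1:**
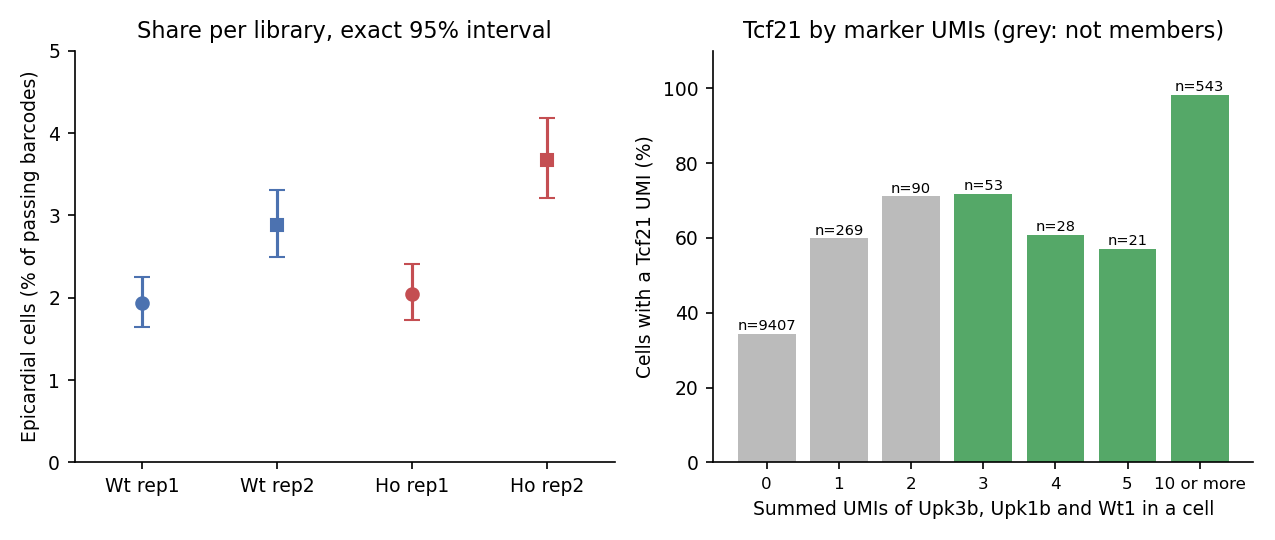
Left, epicardial cells as a percent of passing barcodes in each library, with exact 95% intervals for counting error; right, percent of cells with at least 1 Tcf21 UMI by the summed UMIs of Upk3b, Upk1b and Wt1 (values of 6 to 9 are not drawn), among cells that met the other gates. The Wt and Ho libraries overlap in share, and Tcf21 was found in 98.2% of the 543 cells with 10 or more marker UMIs.

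Tcf21, the marker that the choice did not use, was found in most members. It had a UMI in 86.9% of the members of Wt rep1, 93.4% of Wt rep2, 96.5% of Ho rep1 and 89.5% of Ho rep2. In cells with at least 2 UMIs of Cdh5 and Pecam1, an endothelial class that should lack it, 12.4%, 12.03%, 13.7% and 13.2% had a Tcf21 UMI, taken here as the background (median depth 13686, 16123, 16496 and 16601 UMIs). After each cell was thinned to 2000 UMIs the shares were 61.9%, 72.6%, 75.4% and 64.8% in the members and 2.76%, 3.44%, 3.20% and 3.47% in the endothelial class. Tcf21 lay above that background in each library. The cells that met none of the gates lay between, with a Tcf21 UMI in 27.7%, 35.5%, 38.4% and 51.5%. After thinning these shares were 10.6%, 13.3%, 14.7% and 18.4%, so Tcf21 was not confined to the members. Neither Tcf21 nor the markers of the choice separate proepicardial from epicardial cells, and the uroplakins also mark other mesothelia, so the members are called epicardial cells for short.

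The markers that chose the cells are given as a description. Upk3b stood at 500, 748, 531 and 619 CPM (UMIs of the gene per 1000000 UMIs of the summed members) in the libraries of Wt rep1, Wt rep2, Ho rep1 and Ho rep2. Upk1b stood at 213, 277, 259 and 313 CPM, and Wt1 at 92.6, 124, 109 and 129 CPM. Upk3b carried the choice, since 98.6 to 99.5% of members had a UMI of it while a Wt1 UMI was found in 70.6%, 81.7%, 88.7% and 80.8%. The negative markers were low in the members, with 0.937 CPM of Cdh5, 0.765 CPM of Pecam1, 2.02 CPM of Epcam and 156 CPM of Tnnt2 as means over 4 libraries.

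The threshold did not fall at a step in Tcf21. The 90 cells with exactly 2 marker UMIs, just outside, had Tcf21 at 230 CPM and a Tcf21 UMI in 71.1% of cells, and the 53 cells with exactly 3, just inside, had 205 CPM and 71.7%. The 28 cells with exactly 4 had 339 CPM and 60.7%, and the 21 with exactly 5 had 234 CPM and 57.1%. The 543 cells with 10 or more had 861 CPM. The 9407 cells without any marker UMI that met the other gates still had Tcf21 in 34.2% of cells at 82.0 CPM. The members with 3 to 5 marker UMIs therefore could not be separated by the share with Tcf21 from their nearest neighbours outside. Of the 718 members, 543 had 10 or more marker UMIs.

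Other cell types that the gate could hold were searched by marker lists. Of the 7 macrophage genes, C1qa, C1qb and C1qc (complement) had no UMI in the members, which allows up to 0.195 CPM each (3 counts over the 4 libraries), against means of 1.15, 2.70 and 2.29 CPM in the remaining cells. Csf1r of the same list, a cytokine receptor of that lineage, had 5, 14, 9 and 12 UMIs and was higher in the members in 4 of 4 libraries, at a mean of 2.54 against 1.05 CPM. Of the 8 epithelial genes, Cdh1 (epithelial cadherin) and Cldn6 had no UMI, whereas Spint2, a protease inhibitor, stood at 60.03, 45.3, 41.7 and 54.3 CPM, against 385.9, 474, 150 and 402 CPM in the Epcam cells. Hnf4a of the liver list and Pax2 and Nr5a1 of the urogenital list had no UMI, but their means over the libraries were under 0.1 CPM in the remaining cells too. Lhx9, a LIM homeobox factor of the urogenital list, stood at 27.8, 33.9, 43.8 and 36.0 CPM against at most 0.696 CPM in the cells of no gate. A single cell of Ho rep1 held 34 UMIs of Fcer1g and 21 of Tyrobp, both myeloid genes. The 13 cardiomyocyte genes were all present, summing to 4198, 3106, 5966 and 3935 CPM, of which Myl7, the atrial myosin light chain, gave 2734, 2185, 4082 and 2981 CPM. In the endothelial class the same list summed to 806, 959, 2617 and 911 CPM, so both classes were highest in Ho rep1, and the members lay above it in all 4 libraries. Called doublets, which were kept, numbered 3, 3, 2 and 0 of the members.

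What set the members beside the remaining cells, given as a description because the cells were chosen by expression, were mesothelial genes. Of the 33 epicardial genes outside the choice, 28 reached a mean of 10 CPM in members or remaining cells, and 16 of these were at least 2 times higher in the members in 4 of 4 libraries, against 3.35% of all 8092 genes at that level. Among transcription factors, Tcf21 averaged 762 CPM against 40.7 in the remaining cells, a ratio of 18.7. Tbx18, a T-box factor of the proepicardium and sinus horns, averaged 156 against 6.28 CPM, a ratio of 24.9, and Bnc1, a zinc finger factor of surface epithelia, had a ratio of 56.2 at 16.3 CPM. In the opposite direction, Hand1, Tbx5 and Tbx20, factors of the cardiac mesoderm, had ratios of 0.462, 0.339 and 0.337.

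Upk3b and Upk1b, genes of the choice, had ratios of 159 and 128 and were left out of the ranking. Among the other genes at 100 CPM or more in the members of every library, the 20 largest ratios included surface, keratin and adhesion genes. Dcn, the matrix proteoglycan decorin, had the largest of them, with 211, 378, 285 and 270 CPM in the members of Wt rep1, Wt rep2, Ho rep1 and Ho rep2 and 1.66 to 6.13 CPM in the remaining cells, a ratio of the means of 69.6. The keratins of simple epithelia followed with ratios of 28.1 for Krt7, 9.38 for Krt19, 6.87 for Krt18 and 5.31 for Krt8. Krt19 was not particular to the members. In the Epcam cells it stood at 43.6, 149 and 44.7 CPM in Wt rep1, Wt rep2 and Ho rep2, against 138, 176 and 198 CPM in the members. Ezr, the linker of membrane and actin in microvilli, had a ratio of 12.4, Podxl, a sialomucin of free surfaces, 7.22, Sdc4, a heparan sulphate proteoglycan, 13.4, and Itga4, the integrin subunit through which the epicardium attaches to VCAM1 on the myocardium, 9.01. Of the 20 polarity and junction genes at 10 CPM, 6 were at least 2 times higher in the members in 4 of 4 libraries and 2 lower. Of all genes at that level, 3.35% were higher and 5.05% lower. The median ratio of the list was 0.952 against 0.999 over all genes. Crb2, Pard6b and Prkcz had ratios of 7.46, 6.01 and 4.98, whereas Pard3 and Llgl1 had 0.732 and 0.653. E-cadherin (Cdh1), the usual junction gene of such epithelia, was not detected at this depth. At the other end, 5.05% of genes were at least 2 times lower in the members in 4 of 4 libraries, 12 of the 13 cardiomyocyte genes among them. Among genes at 100 CPM or more in the remaining cells of every library, the 10 lowest ratios were those of the haemoglobins Hbb-y (0.00837) and Hba-x (0.00868) and of the muscle genes Myh7, Myl2, Myl3, Ttn, Cox6a2, Acta1, Myh6 and Tnni3 (0.0240 to 0.0461).

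Single genes of the signalling lists had large ratios. Of the retinoic acid genes, 2 of the 8 at 10 CPM were at least 2 times higher in the members in 4 of 4 libraries and 0 lower, and of the secreted signals 5 of 27 were higher and 3 lower, with median ratios of 1.35 and 0.825. By the same measure 3.35% of all 8092 genes were higher and 5.05% lower. Retinoic acid, a signal of the epicardium to the myocardium, is made by Aldh1a2 and Aldh1a1, which averaged 53.6 and 55.3 CPM at ratios of 17.1 and 48.3, and the catabolic enzymes were at or near 0 (Cyp26a1 without a UMI, Cyp26b1 at a mean of 0.213 against 5.49 CPM in the remaining cells). Of the secreted signals, Rspo1, an enhancer of Wnt signalling, had a ratio of 20.1, Sema3d, a guidance cue of proepicardial cells, 18.3, and Fgf9, a growth factor for cardiomyocytes, 3.06 at 13.0 CPM. Rspo3, Nrg1 (neuregulin) and Angpt1 (angiopoietin) ran the other way, at ratios of 0.0780, 0.0555 and 0.166. Ptn (pleiotrophin) was abundant at a mean of 1016 CPM and a ratio of 4.47. Of the 28 matrix genes at 10 CPM, 5 were at least 2 times higher in the members in 4 of 4 libraries (3.35% of all genes) and 3 lower (5.05% of all genes). Their median ratio was 0.994. The higher ones included Fbln2 (fibulin) at 5.50, Sparc at 2.99 and 1944 CPM, and the laminin chains Lama1 and Lama5 at 3.78 and 2.60. Lama4, another laminin chain, had a ratio of 0.172. Collagen I, made by Col1a2 and Col1a1, had ratios of 4.67 and 3.37. The 21 genes of cholesterol synthesis did not stand apart, with a median ratio of 1.05 against 0.999 over all genes, and none of the 19 at 10 CPM was 2 times higher or lower in 4 libraries. Soat1, which esterifies cholesterol for storage, was at 111 CPM with a ratio of 2.75, and Lrp2, an endocytic lipoprotein receptor, at 8.56 CPM with a ratio of 10.45.

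**Figure D2:**
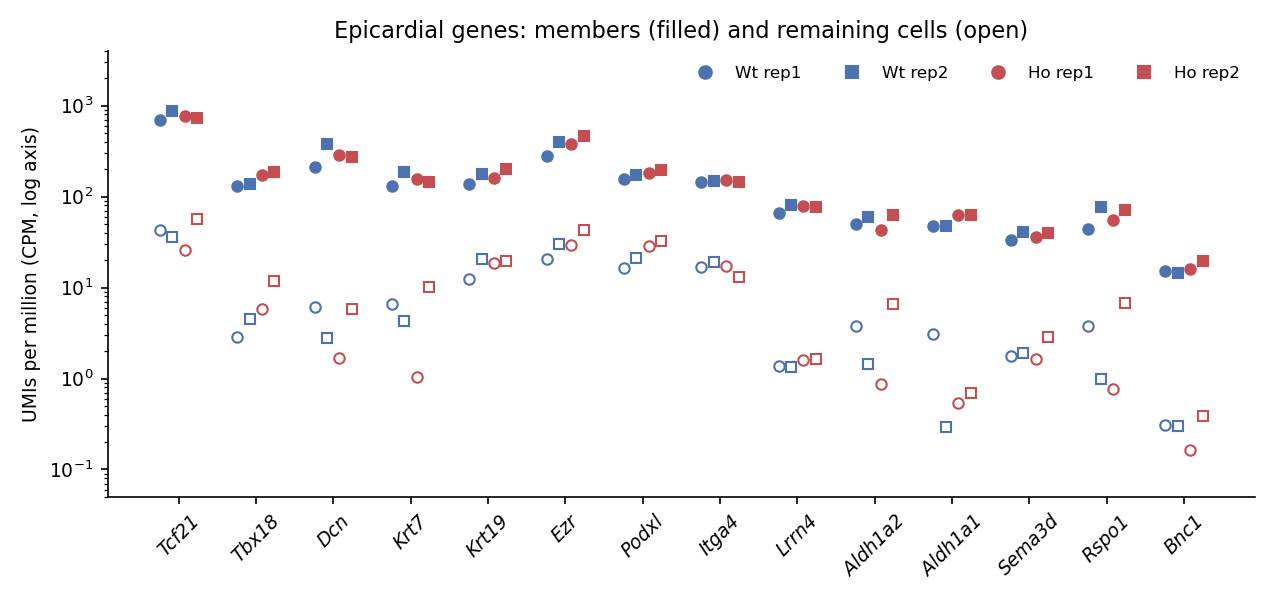
CPM on a log axis of 14 genes in the summed epicardial cells (filled) and remaining cells (open) of each library; none of the 14 genes was used to choose the cells. Every filled point lies above the open points of its gene, as for Tbx18 at 131, 137, 172 and 186 CPM against 2.87 to 11.9 CPM.

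The members were split by Wt1, itself a gene of the choice, as a description. A uroplakin UMI and a Wt1 UMI were found together in 574 members, 141 had a uroplakin UMI without Wt1, and 3 had Wt1 alone. The members without Wt1 were 29.4% of the total in Wt rep1, 18.3% in Wt rep2, 11.3% in Ho rep1 and 19.2% in Ho rep2, at a lower median depth (13639, 14782, 19407 and 16178 UMIs against 18934, 23012, 23403 and 22866), and the part of depth in this split was not tested.

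Tcf21 stood at 798, 925, 767 and 810 CPM in members with Wt1 and at 364, 450, 762 and 284 CPM in those without. Tbx18 followed the same order, at 150, 147, 173 and 204 CPM with Wt1 and 77.4, 73.4, 167 and 77.5 CPM without. Both factors were lower in the members without Wt1 in 4 of 4 libraries, but only slightly in Ho rep1, which had the fewest such cells (16). Hand1, a basic helix-loop-helix factor of the lateral mesoderm and pericardium, was higher in the members without Wt1, at 61.1, 119, 3.56 and 23.9 CPM against 11.8, 10.2, 0.668 and 5.85 CPM. Dlk1, an imprinted transmembrane protein of the Notch ligand type found on embryonic progenitors, was also higher there in the Wt libraries, at 219 and 230 CPM against 104 and 120 CPM. These levels are a description, since Wt1 was part of the choice.

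**Figure D3:**
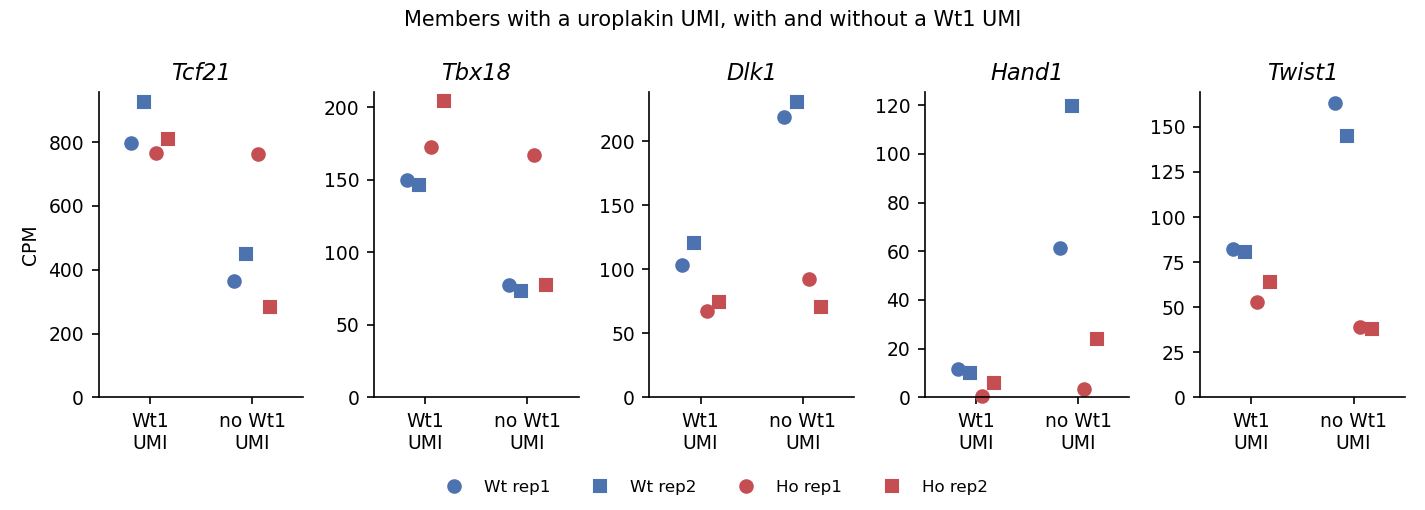
CPM of 5 genes in the 574 members with a uroplakin and a Wt1 UMI and the 141 with a uroplakin UMI and no Wt1 UMI, per library. Hand1 and, in Wt, Dlk1 and Twist1 are higher without Wt1, where the 2 genotypes also lie farther apart; Tcf21 is lower there in 4 of 4 libraries, though in Ho rep1 it differs little (762 against 767 CPM).

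The comparison of Ho with Wt was made on UMIs summed over the members of each library, which came to 2948304, 4304727, 3288148 and 4828567 UMIs. Levels in this comparison are CPM after TMM scaling, a correction for differences in composition, and are called normalised CPM. Cyp51 itself, lanosterol 14-alpha-demethylase (chromosome 5, 4081145 to 4104746, minus strand, GRCm38), stood at 77.3 and 77.2 normalised CPM in Wt rep1 and Wt rep2 and at 72.8 and 83.2 in Ho rep1 and Ho rep2. The Ho values lay on either side of the Wt ones, at a log2 fold change of 0.02 (SE 0.13, edgeR adjusted p = 0.995). The allele changes a single residue, so the level of the transcript does not check the genotype labels.

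Of 10679 genes tested in the epicardial cells, 4 (0.0375%) passed an adjusted p of 0.05 in edgeR's quasi-likelihood test, 3 higher (0.0281%) and 1 lower (0.00936%) in Ho. They were Barx1, Sag and Gm10457, which rose, and Dlk1, which fell. At an unadjusted p under 0.05 there were 519 genes (4.86%), 246 higher and 273 lower. Without Ho rep1 no gene passed (508 at an unadjusted p under 0.05), and without Wt rep1, Wt rep2 or Ho rep2 there were 8, 18 and 14, so that the list depended on single libraries.

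Barx1, a homeobox factor of pharyngeal and stomach mesenchyme (chromosome 13, 48662998 to 48666507, plus strand), had 4.77 and 5.22 normalised CPM in Wt rep1 and Wt rep2 and 24.7 and 31.8 in Ho rep1 and Ho rep2. Neither Wt library came near the Ho levels, with a log2 fold change of 2.50 (SE 0.25, edgeR adjusted p = 0.00498). Few cells carried it. A Barx1 UMI was found in 5 of 160, 18 of 197, 21 of 142 and 23 of 219 members, and the cell with the most held 6 of 14, 4 of 23, 15 of 78 and 44 of 154 UMIs. Without these cells the levels were 2.74, 4.43, 19.3 and 22.9 CPM, so the order was kept. In the Ho libraries the members with a Barx1 UMI had Tcf21 at 548 and 526 CPM against 800 and 762 CPM in the other members, and Tbx18 at 163 and 153 CPM against 173 and 190 CPM. Among genes of other mesoderm, Crabp1 and Isl1 were higher with Barx1 in both Ho libraries, whereas Foxf1 and Twist1 were not. Crabp1 was higher in the members with a Barx1 UMI in both Ho libraries (37.5 and 69.8 CPM against 14.95 and 33.7 CPM) and in Wt rep2 (48.9 against 20.02 CPM), but not in Wt rep1 (42.2 against 105 CPM, 5 cells). Isl1, a factor of second heart field and pharyngeal mesoderm, was higher in them in both Ho libraries (20.8 and 52.8 CPM against 1.78 and 35.4 CPM) and lower in both Wt libraries (31.7 and 24.5 CPM against 55.7 and 27.2 CPM). Foxf1 was higher in them in Ho rep2 (47.1 against 11.2 CPM) and without a UMI in Ho rep1. Wt rep1 and Wt rep2 had 8 and 11 Foxf1 UMIs in all members, too few to give a direction. The levels there were 10.6 against 2.45 CPM and 2.45 against 2.57 CPM. Twist1 was lower in the members with a Barx1 UMI in Wt rep1 (31.7 against 104 CPM) and Ho rep2 (39.6 against 63.3 CPM). It was close in Wt rep2 (90.5 against 89.3 CPM) and Ho rep1 (56.3 against 52.7 CPM). The part of these genes in the Barx1 difference was not tested. In cells that met no gate Barx1 was most frequent in Wt rep1, with a UMI in 12.4% of cells against 3.45%, 6.61% and 7.05%, and the members of that library had the lowest level.

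The other genes called higher rested on single cells. Sag, the retinal arrestin (chromosome 1, 87803680 to 87845158, plus strand), had 9, 15, 76 and 76 UMIs in the members, and a single cell held 56 of the 76 in Ho rep1 and 49 of the 76 in Ho rep2. Without the richest cell of each library Sag stood at 2.72, 3.03, 6.14 and 5.63 CPM. Gm10457, a long intergenic noncoding RNA (chromosome 12, 70912259 to 70914485, plus strand), had 0 UMIs in both Wt libraries, 21 in a single cell of Ho rep1 and 57 in 4 cells of Ho rep2. Over the 2 Ho libraries it was at 9.61 CPM, where 3 counts over both Wt libraries allow 0.414 CPM. That limit covers counting error only, not the spread between cells, so no fold is given. Without the richest cell of each library Gm10457 stood at 0 CPM in Ho rep1 and 4.79 CPM in Ho rep2. When the 10 members richest in Barx1, Sag or Gm10457 were left out of their libraries, only Barx1 passed the test, and Sag had an edgeR adjusted p of 0.947.

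Dlk1 (chromosome 12, 109452823 to 109463336, plus strand) was the broadly expressed gene among those called. It had 143 and 132 normalised CPM in Wt rep1 and Wt rep2 and 74.0 and 77.4 in Ho rep1 and Ho rep2, a mean of 138 ± 7.58 against 75.7 ± 2.38 (SD, n = 2 each). The groups did not overlap, and the gene fell by 0.86 on the log2 scale (SE 0.12, edgeR adjusted p = 0.0338). A Dlk1 UMI was found in 73.1% and 79.2% of Wt members and 62.0% and 59.8% of Ho members. After thinning to 2000 UMIs the shares were 23.1% and 23.4% in Wt and 14.1% and 11.9% in Ho. When a library was left out the log2 fold change was -0.80 to -0.91, and the call was lost in each of the 4 fits (adjusted p 0.0558 to 0.598), in which the group left with 1 library is assumed to vary like the other. In members with a uroplakin and a Wt1 UMI it was 104 and 120 CPM in Wt and 67.2 and 74.8 CPM in Ho, a log2 fold change of -0.63 with an adjusted p of 0.324, and with at least 5 marker UMIs the fold change was -0.54 with an adjusted p of 0.375. In the remaining cells Dlk1 was 101 and 64.9 normalised CPM in Wt and 24.6 and 44.6 in Ho, and the log2 fold changes of -0.86 in the members and -1.26 there differed by 0.36 in the joint fit (SE 0.19, edgeR adjusted p = 1), so a difference between the cell groups was not shown.

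**Figure D4:**
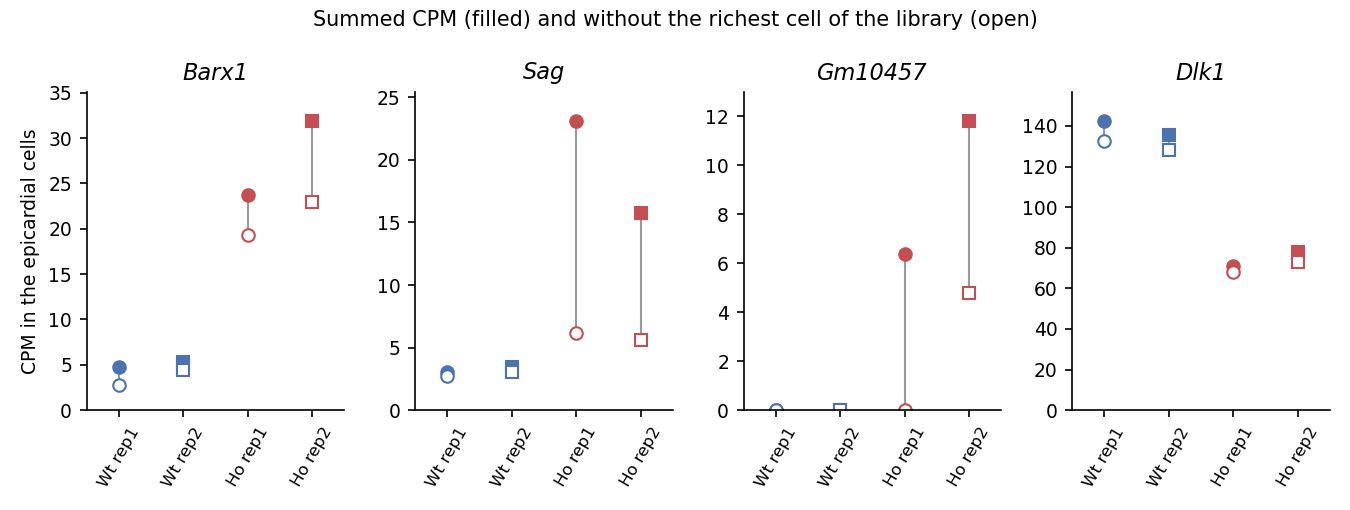
CPM of the 4 called genes in the summed epicardial cells of each library (filled) and after leaving out the cell of that library with the most UMIs of the gene (open). Sag drops from 23.1 to 6.14 CPM in Ho rep1 and from 15.7 to 5.63 CPM in Ho rep2, whereas Dlk1 stays at 67.8 and 73.1 CPM in Ho and at 132 and 128 CPM in Wt.

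The genes next in order did not pass the adjusted threshold and are given as values. Wdr89, a WD repeat protein, had 47.7 and 53.1 normalised CPM in Wt and 90.2 and 88.9 in Ho (log2 fold change 0.82, SE 0.13, edgeR adjusted p = 0.0740). Irgm1, an interferon-induced GTPase, had 1 and 2 UMIs in Wt and 28 and 19 in Ho, of which a single cell held 27 and 18. Slamf1, a lymphocyte receptor, had 15 and 5 UMIs in Wt and 38 and 78 in Ho, with 34 of the 38 in a single cell. Bc1, a short noncoding RNA, had 24.9 and 27.2 against 57.3 and 42.7 normalised CPM (log2 fold change 0.92, adjusted p = 0.265), and Lmo4, a LIM domain cofactor, 92.6 and 105 against 144 and 148 (log2 fold change 0.56, adjusted p = 0.358). Toward lower values, Hand2os1, the noncoding RNA beside Hand2, had 161 and 128 normalised CPM in Wt and 71.2 and 80.1 in Ho (log2 fold change -0.92, adjusted p = 0.0660). The linker histone gene Hist1h1e had 128 and 127 against 75.9 and 52.8 (log2 fold change -1.003, adjusted p = 0.0740), and Phlda2, an imprinted growth regulator, 24.9 and 48.8 against 10.4 and 13.6 (log2 fold change -1.62, adjusted p = 0.180). Tac2, a tachykinin precursor, had 22.8 and 13.8 against 6.01 and 4.75 (log2 fold change -1.75, adjusted p = 0.169). Each of these 9 genes had both Ho libraries on the same side of both Wt libraries, as did 15.7% of all tested genes in the upward and 17.5% in the downward direction. Wdr89, Hand2os1 and Hist1h1e were found in many members, with a UMI in 57.5 to 82.6%, 52.1 to 67.5% and 40.2 to 56.3% of cells per library.

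No epicardial gene was called. Of the 33 on the list outside the choice, 30 passed the filter on low counts, and 9 of these had an unadjusted p under 0.05 in edgeR (background 4.86%), with 5 higher (background 2.3%) and 4 lower (background 2.56%). Their median log2 fold change was 0.10 against -0.00 over all tested genes. Tcf21 had 690 and 840 normalised CPM in Wt and 794 and 733 in Ho, groups that overlapped at a log2 fold change of -0.01 (SE 0.13). Tbx18 had 132 and 133 in Wt and 178 and 185 in Ho (log2 fold change 0.46, SE 0.11, edgeR adjusted p = 0.601). It was also 2.85 and 4.40 in Wt and 6.16 and 11.7 in Ho in the remaining cells. Aldh1a1 had 47.3 and 46.5 in Wt and 65.8 and 62.9 in Ho (log2 fold change 0.45), whereas Aldh1a2 had 50.1, 57.9, 44.6 and 62.1, with a fold change of -0.01. Alcam, an adhesion molecule of the immunoglobulin family, Tbx5 and Bnc2 were the other 3 on the higher side, at log2 fold changes of 0.55, 0.98 and 1.41 on at most 27.8, 11.1 and 4.11 normalised CPM.

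Among the lower genes Hand1 differed most. It had 25.5 and 24.5 normalised CPM in Wt and 0.949 and 8.46 in Ho (log2 fold change -2.23, SE 0.44, edgeR adjusted p = 0.252). A Hand1 UMI was found in 25 and 28 Wt members but 3 and 17 Ho members. The members without a Wt1 UMI, in which Hand1 was higher, were also the fewest in Ho rep1, and within the members with Wt1 the order was the same at 11.8 and 10.2 CPM in Wt and 0.668 and 5.85 CPM in Ho. In the remaining cells Hand1 had 37.0 and 48.7 in Wt and 11.4 and 30.9 in Ho. Hand2 (log2 fold change -0.28), Gata5 (-0.38) and Nkain4 (-0.42) were the other 3 with an unadjusted p under 0.05. Twist1, a mesenchymal basic helix-loop-helix factor on the transition list, had 103 and 87.4 in Wt and 55.4 and 60.5 in Ho (log2 fold change -0.70, SE 0.13, edgeR adjusted p = 0.235).

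Cholesterol synthesis is the pathway of the altered enzyme. Its 21 genes were all tested in the members and none passed the adjusted threshold. The median log2 fold change was 0.20, with 17 of 21 above 0 where 49.6% of all tested genes were, and 8 had both Ho libraries above both Wt libraries (15.7% of all tested genes did) and 1 had both below (17.5%). Among those at an unadjusted p under 0.05 (edgeR, background 4.86%) was Hsd17b7, a 3-ketosteroid reductase of the pathway, at 10.9 and 8.17 normalised CPM in Wt and 15.8 and 19.4 in Ho (log2 fold change 0.93). Fdps, the most abundant of the list, had a log2 fold change of 0.20. The median was 0.06 without Ho rep2 and 0.17 to 0.26 without each of the other libraries, and it was 0.08 in the remaining cells. Of the 24 genes of sterol regulation and transport, 20 were tested, none had an unadjusted p under 0.05 and the median was 0.04.

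Hedgehog signalling, which depends on sterols, and the primary cilium had no gene near the threshold. Of 23 hedgehog genes 14 were tested with a median log2 fold change of -0.06, and of 36 cilium genes 30 were tested with a median of -0.03; none of either list had an unadjusted p under 0.05. Gas1, a hedgehog co-receptor and the most abundant of its list, had 81.4, 86.9, 83.5 and 81.1 normalised CPM in the 4 libraries. Shh and Ihh were at 0 in all members. For the next lists the share of all tested genes at an unadjusted p under 0.05 is 4.86%, with 2.3% higher and 2.56% lower. Genes of the epithelial to mesenchymal transition had a median of -0.06 (21 tested, 2 with an unadjusted p under 0.05, both lower), matrix genes -0.06 (30 tested, 0), secreted signals -0.01 (27 tested, 1 higher and 2 lower), polarity genes 0.01 (21 tested, 1 higher) and retinoic acid genes -0.01 (13 tested, 1 higher). The cell cycle lists lay near 0, with medians of -0.00 for S phase and 0.01 for G2/M, and Top2a, a topoisomerase of dividing cells, had a UMI in 64.4%, 62.9%, 62.0% and 53.9% of members. Glycolysis genes had a median of 0.13 (20 tested, 16 above 0, 2 with an unadjusted p under 0.05, both higher), against 0.30 in the remaining cells.

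Of the 24 lists, that of stress genes held the most genes at an unadjusted p under 0.05. Of its 25 genes of tissue dissociation and heat shock, all tested, 12 were past it in edgeR and all of these were higher in Ho, where 2.3% of all tested genes were, although none passed the adjusted threshold. The median log2 fold change was 0.42 in the members and 0.18 in the remaining cells. Atf3, a stress-induced transcription factor, had 41.5 and 95.8 normalised CPM in Wt and 117 and 190 in Ho (log2 fold change 1.13, SE 0.30, edgeR adjusted p = 0.731). Hspa1a, the inducible heat shock protein, had 25.2 and 36.3 in Wt and 50.0 and 55.3 in Ho (log2 fold change 0.76). The most abundant members of the list did not follow, with log2 fold changes of -0.25 for Hspa8, 0.17 for Hspe1 and 0.16 for Hspd1. Wt rep1 had the lowest Atf3, and without it the list's median was 0.21; without Wt rep2 it was 0.80. The part of tissue handling was not tested.

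Markers of neighbouring cell types were compared in the same way. The median log2 fold change of cardiomyocyte genes was 0.50 in the members (12 tested, 3 with an unadjusted p under 0.05, all higher, where 2.3% of all tested genes were) and 0.68 in the remaining cells, and the median turned to -0.30 without Ho rep1, the library with the highest sum. Haemoglobin Hbb-y had 4, 9, 21 and 13 UMIs in the members (1.36, 2.09, 6.39 and 2.69 CPM), so the Ho values were the higher ones, in Ho rep2 by little. Endothelial markers had a median of -0.08 (6 tested) and cushion mesenchyme markers -0.01 (8 tested). The pharyngeal mesenchyme list, which holds Barx1, had a median of -0.39 over 5 tested genes, 2 of them above 0, Barx1 and Foxf1. Foxf1, a forkhead factor of visceral mesenchyme, had 2.72 and 2.50 normalised CPM in Wt and 0 and 15.1 in Ho, with 73 UMIs in 28 cells of Ho rep2. Prrx1 of that list had 8.85 and 3.86 normalised CPM in Wt and 0.316 and 1.24 in Ho.

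**Figure D5:**
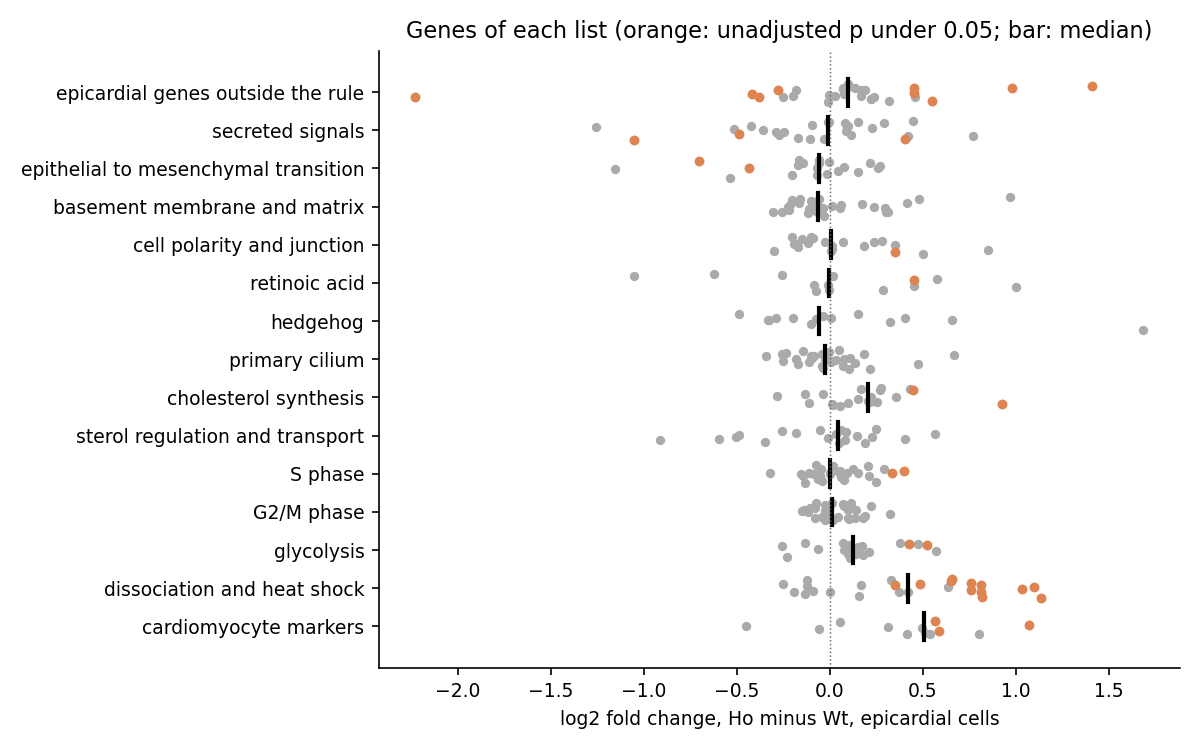
Log2 fold change of Ho over Wt in the epicardial cells for each tested gene of 15 lists, with the list's median as a bar and genes at an unadjusted p under 0.05 in orange. The medians of stress and cardiomyocyte genes, 0.42 and 0.50, lie farthest above 0, cholesterol synthesis follows at 0.20, and the other medians lie between -0.06 and 0.13.

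The remaining cells gave the same comparison a background. Of 17066 genes tested there, 0 passed the adjusted threshold in edgeR and 810 (4.75%) had an unadjusted p under 0.05. Whether the effect of the genotype differed between members and remaining cells was tested with the library as a block. Of 16724 genes, 8 passed (0.0478%), and 785 (4.69%) had an unadjusted p under 0.05. Barx1 had a log2 fold change of 2.50 in the members and -1.44 in the remaining cells (edgeR adjusted p = 1.63e-05), where Wt rep1 alone was high at 32.3 normalised CPM against 7.07, 5.72 and 8.84, and Wt rep2 lay between the Ho libraries. Scx, a factor of tendon and epicardial progenitors, stood in the members at 37.1, 39.9, 42.4 and 44.2 normalised CPM and at 20.4, 14.1, 4.79 and 7.85 in the remaining cells (adjusted p = 0.00406). Acta2, smooth muscle actin, had 474 and 483 in Wt and 360 and 386 in Ho members, and 1502 and 2617 in Wt and 2779 and 3095 in Ho remaining cells (adjusted p = 0.0157). The makeup of the remaining cells differed between libraries, as given above. With the cells of no gate in their place 0 genes passed, with 325 at an unadjusted p under 0.05. With the Tnnt2-high cells 4 did, Barx1 among them.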

How the data were processed

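Single-cell 3′ libraries of E10.5 hearts were read as the UMI count matrices that the authors deposited for each of the 4 samples (32285 genes; 109893733, 117034633, 127018819 and 107377100 UMIs in Wt rep1, Wt rep2, Ho rep1 and Ho rep2). The submitters' processing notes name Cell Ranger 6.1.1, Seurat 4.1.0 and the mm10 (GRCm38) build. The counts were whole numbers and were used without further scaling by the authors. Coordinates are those of the GENCODE annotation of GRCm38.

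Barcodes were filtered and members chosen by the thresholds given in the text. The members, gene lists and tests were chosen with earlier results of these data known. Called doublets (Scrublet in scanpy 1.11.5, rate 0.8% per 1000 cells) were kept and removed only as an alternative. UMIs were summed per library over members and over remaining cells and compared with edgeR 4.0.16 in R 4.3.3 (TMM scaling, filterByExpr, quasi-likelihood test, Benjamini-Hochberg adjustment at 0.05 over all tested genes); SE is the fold change divided by the square root of F. The difference of the effects was fitted over the 8 sums with library as a block. Exact tests used scipy 1.17.1. Methods were tested on simulated sums with the same dispersion for every gene, which does not cover genes with most UMIs in a single cell. Members against remaining cells were described without a test.

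Named by rule were the genes of the choice and the 20 highest and 10 lowest ratios of other genes at 100 CPM or more. So were the called genes, the 5 smallest unadjusted p in a direction with fewer than 5 calls, and the interaction calls (at most 10). Of each list, called genes or the 3 most abundant were named. Other list genes were named after their values were seen, mostly those at an unadjusted p under 0.05. Single values of some list genes are not reported here. Replicate numbers did not pair the libraries (Pearson r 0.000184 across 10679 genes between the deviations of same-numbered libraries; genes are not independent). Replicate sums differed by more than counting noise (chi-square over degrees of freedom 4.19 and 4.78). Same-numbered sums across genotypes did too (3.40 and 4.99), so this ratio decides nothing about the libraries. Each was counted as a library of its own. Alternatives were another scaling (RLE), DESeq2 1.42.0, other count filters, each library left out, a replicate block, other gates and thinned counts. Every gate value rests on few UMIs per cell, and intervals cover counting error only.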

Additional observations from a re-analysis of the deposited data

Results flagged for a closer look

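The genotype effect differed between epicardial and remaining cells for 8 genes, by edgeR's interaction test with Benjamini-Hochberg adjustment over 16724 genes. With at least 10 UMIs in every sum 0 genes passed (384 at an unadjusted p under 0.05), and with the cells of no gate in place of the remaining cells, chosen after seeing the data, also 0 (325). Levels are normalised CPM in the order Wt rep1, Wt rep2, Ho rep1 and Ho rep2. Barx1 (interaction 3.59 on the log2 scale, SE 0.37, adjusted p = 1.63e-05) had 4.77, 5.22, 24.7 and 31.8 in the epicardial cells and 32.3, 7.07, 5.72 and 8.84 in the remaining cells. Scx (1.56, adjusted p = 0.00406) had log2 fold changes of 0.17 in the members and -1.45 in the remaining cells. Crabp1, a retinoic acid binding protein (1.16, adjusted p = 0.00863), had -1.05 and -2.39. It stood at 103, 22.2, 19.0 and 37.6 in the members and at 283, 46.6, 15.9 and 46.8 in the remaining cells, so Wt rep1 was high in both. The other Wt library lay between the Ho libraries in the members, so the fall there rested on Wt rep1.

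Acta2 (-0.95, adjusted p = 0.0157) and Ramp1, a receptor activity modifying protein (-1.02, adjusted p = 0.0417), were lower in the Ho members and higher in the remaining cells of Ho. Within the Tnnt2-high cells, whose number differed between libraries, Acta2 stood at 5537, 5518, 4583 and 6315 CPM. Ramp1 stood there at 79.5, 87.5, 85.5 and 88.6 CPM. The part of cell makeup in these 2 differences was not tested. Ramp1 had 39.5, 47.2, 37.0 and 29.1 in the members and 23.3, 42.4, 54.4 and 43.6 in the remaining cells, where Wt rep2 and Ho rep2 lay close together. The other genes rested on few cells. For Sag (2.43, adjusted p = 0.0157) and Gm10457 (adjusted p = 0.0262) single cells of the Ho libraries held most UMIs, as given above. For Gal, the neuropeptide galanin (-3.36, adjusted p = 0.0159), a single member of Wt rep2 held 44 of 66 UMIs, and the levels were 0.341, 14.98, 2.85 and 1.24 in the members and 6.34, 10.98, 26.6 and 17.7 in the remaining cells.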

How the results depend on the processing

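With 2 libraries per genotype every count depended on single libraries. Against 4 genes called in the epicardial cells, DESeq2 called 7, no filter on low counts 121 (of 17725 tested), at least 10 UMIs in every sum 2, the replicate block 19, Tnnt2 under 5 per 10000 gave 7, and leaving out the richest cells, chosen after seeing the data, 1; leaving out a library gave 0 to 18. All 4 genes were among those called with no filter, with DESeq2 and with the block, and the cause of the added calls was not tested. In the remaining cells leaving out a library gave 0 to 5 calls (5 without Ho rep2) and the other alternatives 0.

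For the 8 differences of effects, no filter gave 101, at least 10 UMIs in every sum 0, at least 2 marker UMIs 37, at least 5 marker UMIs 3, Tnnt2 under 5 per 10000 gave 103, removing called doublets 3, and leaving out a library 42 to 414; with Tnnt2-high cells or cells of no gate as the other arm, both chosen after seeing the data, 4 and 0 were called. The share difference ran from -0.358 to 1.26 points when a library was left out (-0.0216 without Wt rep1).

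Of 569 planned values for 34 named genes, 559 kept their direction, 10 were reversed, 10 lost a call and 48 gained one. For the 8 differences of effects, 20 of 109 planned values and 14 of 16 chosen after seeing the data lost the call. Cyp51 ran from -0.0848 (without Ho rep2) to 0.108 when a library was left out, and was -0.0291 with at least 2 marker UMIs and -0.0358 with Tnnt2 under 5 per 10000. Tcf21 was 0.00247 with RLE scaling, 0.00257 with DESeq2, 0.00988 with at least 2 marker UMIs, 0.00634 with Tnnt2 under 5 per 10000, and -0.136 to 0.148 when a library was left out (0.0524 without Ho rep2). Myl2 was -0.12 with Tnnt2 under 5 per 10000. The difference of effects for Crabp1 was -0.0594 against Tnnt2-high cells, and for Gal -3.96 to 0.646 when a library was left out (0.646 without Wt rep2). Without Ho rep1 all 4 calls were lost (Barx1 adjusted p = 0.169 in edgeR). Barx1 lost its call in no other fit, Sag also with the marker threshold after thinning (adjusted p = 0.475) and without the richest cells, and Gm10457 without Ho rep2 (adjusted p = 0.140). At 142 to 219 members per library, a gene of a few CPM rests on a handful of cells.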

Other observations

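Epicardial cells had more UMIs than the remaining cells of each library, with medians of 17566 against 11989 in Wt rep1, 22009 against 15341 in Wt rep2, 22027 against 16764 in Ho rep1 and 22196 against 16561 in Ho rep2, as a description of cells chosen by a UMI threshold. A further 187 passing barcodes (16, 55, 58 and 58) reached the marker threshold but were held out by the Tnnt2, endothelial or Epcam gates. In these, Myl7 stood at 14466, 13029, 13546 and 14188 CPM, between the members and the Tnnt2-high cells at 24425, 22716, 23142 and 23656 CPM.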
